A study of Mus musculus with 6 samples.

Results

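The genes described here are 6 genes of renal gluconeogenesis and fructose metabolism, *Pck1*, *Pck2*, *Pcx*, *Fbp1*, *Khk* and *Slc37a4*, chosen by symbol from a table of RNA-seq read counts for 46095 genes. All 6 had enough counts to be tested, as did 14611 genes in total. The counts came from renal tubular epithelial cells (PTECs) freshly isolated from 10-week-old mice on a C57 background, with 3 libraries under each label. Those labelled VHL-KO carry the replicate numbers 1, 2 and 4, while the numbers 2, 3 and 4 belong to VHL-KO;SETD2-KO. In both genotypes a Cre recombinase under the Cdh16 (Ksp) promoter deletes floxed VHL, and in the second it also deletes floxed Setd2, a histone H3 lysine 36 methyltransferase. VHL is thus deleted under both labels, and no wild-type library was analysed here. The Cdh16 promoter is active in tubular epithelium and is best known for its activity in the distal nephron and collecting duct, so a cell of the preparation need not have recombined. The comparison asks which of these genes differ when Setd2 is deleted on top of VHL.

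The proximal tubule is, beside the liver, the main site of glucose synthesis in the body. Pyruvate carboxylase (*Pcx*) makes oxaloacetate from pyruvate in mitochondria, phosphoenolpyruvate carboxykinase turns it into phosphoenolpyruvate in the cytosol (*Pck1*) or in mitochondria (*Pck2*), and fructose-1,6-bisphosphatase (*Fbp1*) reverses the committed step of glycolysis. *Slc37a4* encodes the transporter that brings glucose 6-phosphate into the endoplasmic reticulum, where it is cleaved to glucose. Ketohexokinase (*Khk*) phosphorylates fructose, which the same cells take up and can convert to glucose. VHL marks the hypoxia-inducible factors for degradation, so these factors are stabilised where VHL is lost.

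The promoters of 3 of the genes are shown because they carry short motifs of factors known to act on these pathways. Each line gives the 250 bases before a RefSeq transcription start (GRCm38.p6), 5′ to 3′, with the matched motifs in capitals.
Pck1, chr2:173152823-173153072, plus strand: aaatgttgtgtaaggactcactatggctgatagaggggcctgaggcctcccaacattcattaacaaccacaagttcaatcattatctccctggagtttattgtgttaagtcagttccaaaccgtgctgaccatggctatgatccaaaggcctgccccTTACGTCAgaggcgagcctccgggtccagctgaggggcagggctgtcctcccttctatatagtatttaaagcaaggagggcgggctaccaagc
Khk, chr5:30921309-30921558, plus strand: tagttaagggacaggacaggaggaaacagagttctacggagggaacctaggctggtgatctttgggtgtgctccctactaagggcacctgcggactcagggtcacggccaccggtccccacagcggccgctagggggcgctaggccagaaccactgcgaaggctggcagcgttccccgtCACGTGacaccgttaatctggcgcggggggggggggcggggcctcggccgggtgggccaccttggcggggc
Pcx, chr19:4510222-4510471, plus strand: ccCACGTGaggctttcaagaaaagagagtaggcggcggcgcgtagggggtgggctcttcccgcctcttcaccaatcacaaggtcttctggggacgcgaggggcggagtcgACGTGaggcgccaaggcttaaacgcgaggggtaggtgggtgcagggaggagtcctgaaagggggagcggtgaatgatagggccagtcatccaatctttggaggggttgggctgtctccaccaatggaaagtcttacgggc

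In *Pck1* the capitals mark TTACGTCA, the form of the cAMP response element in this promoter, 93 to 86 bases before the start. TTACGTCA occurred in 0.447% of all 32851 windows of the same length. In *Khk* they mark CACGTG, in which ACGTG (a hypoxia response element core) reads on both strands 71 to 66 bases before the start. In the first of 2 windows of *Pcx*, ACGTG occurred 248 to 243 bases before the start, again on both strands in overlap, and 140 to 136 bases before it on the plus strand. ACGTG was present in 2 of the 9 windows of the 6 genes and in 16.6% of all windows. The other core, GCGTG, was present in 28.2% of all windows, with 1 match in *Pck2*, 85 to 81 bases before its start. Both strands were searched for each motif. TGACGTCA (1.55% of all windows) and CAAAGTCCA, an HNF4A-type motif (0.384%), were not found in any of the 9 windows of the 6 genes. None of these motifs was found for *Fbp1* or *Slc37a4*. These matches describe letters only, and their part in the levels was not tested.

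The libraries held 11168552 to 17883466 counts, and 3 counts, taken as the smallest detectable signal, corresponded to 0.168 to 0.269 CPM (counts scaled to the library size), for counting error only. *Setd2* was measured at 71.3, 73.8 and 12.3 CPM in VHL-KO 1, 2 and 4 and at 79.5, 57.3 and 89.5 CPM in VHL-KO;SETD2-KO 2, 3 and 4 (log2 fold change 0.52, standard error (SE) 0.64, edgeR adjusted p = 0.787), so the counts do not show the deletion that the second label names. The study itself reported lower SETD2 mRNA by RT-qPCR in VHL-KO;SETD2-KO mice, and lower SETD2 protein and H3 lysine 36 trimethylation. Counts over a whole gene need not fall when a floxed exon is lost, but this was not tested. All directions below are between libraries labelled VHL-KO and libraries labelled VHL-KO;SETD2-KO. A pair of libraries stood apart. VHL-KO 4 had a Spearman correlation of 0.717 to 0.765 with the others, which correlated with each other at 0.937 to 0.986, and 11.3% of its counts were mitochondrial, against 25.9% to 36.4%. VHL-KO;SETD2-KO 3 held 11704 counts of *Xist*, the RNA of the inactive X chromosome, against 0 to 4 in the others. Values without these libraries are therefore given where leaving them out moves a result.

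All 6 genes had lower mean levels in the VHL-KO;SETD2-KO libraries, with a median log2 fold change of -1.35 against 0.01 over all tested genes. At an unadjusted p-value below 0.05 and a fold change of at least 1.5, *Pcx* and *Khk* were lower, 2 of the 6, while 4.68% of all tested genes were called lower and 2.66% higher. None of the 6 passed after Benjamini-Hochberg adjustment over all tested genes, where edgeR called 0.00684% of genes (1 gene). With DESeq2 at the same unadjusted threshold 4 of the 6 were lower, *Fbp1* and *Slc37a4* in addition, with adjusted p-values of 0.132 to 0.245 for these 4. DESeq2 was run without the low-count filter and called 1123 of 25307 genes lower (4.44%), where edgeR called 684 of 14611. The 2 shares are therefore not of the same set of genes. Without VHL-KO 4, none of the 6 was called in either direction by edgeR, where 7.15% of genes were lower and 8.29% higher, and their median log2 fold change was -0.46 against 0.04 over all tested genes. The calls of *Pcx* and *Khk* were also lost without VHL-KO;SETD2-KO 2 or 4, and that of *Khk* without VHL-KO;SETD2-KO 3, while the direction stayed. In these mixed cell preparations, fewer proximal tubule cells and less RNA per cell cannot be told apart.

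**Figure D1:**
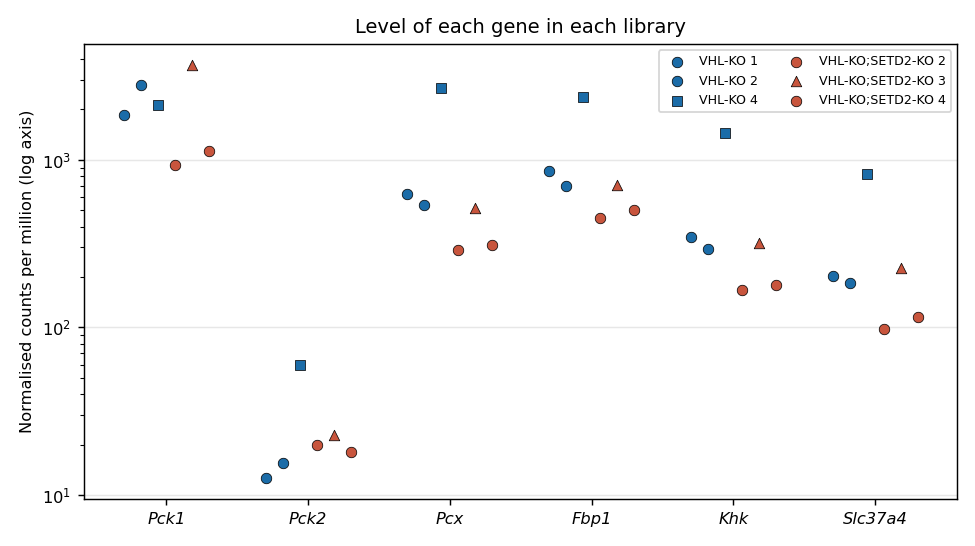
Normalised CPM (log axis) of the 6 genes in each library, with VHL-KO in blue and VHL-KO;SETD2-KO in red; the square is VHL-KO 4 and the triangle VHL-KO;SETD2-KO 3. The square lies above all other points for Pcx, Fbp1, Khk, Slc37a4 and Pck2, and the triangle lies highest for Pck1.

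*Pcx* (chr19:4510472-4621752, plus strand, GENCODE on GRCm38) is the enzyme of entry into the pathway. Its levels were 624, 541 and 2675 CPM in VHL-KO 1, 2 and 4 and 290, 517 and 310 CPM in VHL-KO;SETD2-KO 2, 3 and 4. It was the only one of the 6 genes whose groups did not overlap, whereas 11.0% of all tested genes separated in this direction and 9.62% in the other, and VHL-KO;SETD2-KO 3 was close to the lowest VHL-KO library. The log2 fold change was -1.78 (SE 0.71, edgeR adjusted p = 0.625), and VHL-KO 4 held 4.59 times the mean of the other VHL-KO libraries. Without VHL-KO 4 it was -0.65 (SE 0.29, edgeR adjusted p = 0.279).

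*Fbp1* (chr13:62864753-62888282, minus strand) was measured at 858, 702 and 2366 CPM in the VHL-KO libraries and at 452, 708 and 502 CPM in the VHL-KO;SETD2-KO libraries. VHL-KO;SETD2-KO 3 reached VHL-KO 2, so the groups overlapped, and the other VHL-KO;SETD2-KO libraries were the lowest of the 6. Its log2 fold change was -1.24 (SE 0.58, edgeR adjusted p = 0.625) with all libraries and -0.50 (edgeR adjusted p = 0.325) without VHL-KO 4.

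*Khk* (chr5:30921431-30931248, plus strand) followed the same order of libraries as *Fbp1*, with 347, 292 and 1457 CPM against 168, 320 and 179 CPM. Its log2 fold change was -1.65 (SE 0.71, edgeR adjusted p = 0.625), and -0.53 (edgeR adjusted p = 0.392) without VHL-KO 4. The counts are per gene, and so the A and C isoforms of ketohexokinase, which differ in their affinity for fructose, cannot be told apart.

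*Slc37a4* (chr9:44396852-44402968, plus strand) was measured at 204, 185 and 823 CPM under the VHL-KO label and at 98.0, 226 and 115 CPM under the VHL-KO;SETD2-KO label. Here VHL-KO;SETD2-KO 3 exceeded both VHL-KO 1 and VHL-KO 2. The log2 fold change was -1.47 (SE 0.70, edgeR adjusted p = 0.625), and -0.41 (edgeR adjusted p = 0.563) without VHL-KO 4. For these 4 genes VHL-KO 4 held 3.03 to 4.59 times the mean of the other VHL-KO libraries, which is more than any difference between the labels among the remaining libraries.

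*Pck1* (chr2:173153048-173159273, plus strand) did not share this pattern. Its levels were 1848, 2786 and 2120 CPM in the VHL-KO libraries and 931, 3702 and 1126 CPM in VHL-KO;SETD2-KO 2, 3 and 4. VHL-KO 4 lay between the other VHL-KO libraries, and VHL-KO;SETD2-KO 3 held 3.60 times the mean of the other libraries of its label, more than any VHL-KO library. Between the labels the log2 fold change was -0.23 (SE 0.62, edgeR adjusted p = 0.901) with all libraries, -0.28 (edgeR adjusted p = 0.837) without VHL-KO 4 and -1.12 (edgeR adjusted p = 0.753) without VHL-KO;SETD2-KO 3.

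*Pck2* (chr14:55540266-55551242, plus strand), the mitochondrial form, was scarce, with 12.6, 15.5 and 59.6 CPM against 19.9, 22.8 and 18.0 CPM. VHL-KO 4 was the highest library and the other VHL-KO libraries the lowest, with the 3 VHL-KO;SETD2-KO libraries between them. The log2 fold change was -0.53 (SE 0.62, edgeR adjusted p = 0.777) and turned to 0.52 (SE 0.18, edgeR adjusted p = 0.203) without VHL-KO 4, which held 4.24 times the mean of the other VHL-KO libraries.

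Without both libraries that stood apart, a choice made after the data had been seen, 5 genes were lower in VHL-KO;SETD2-KO libraries with an adjusted p below 0.05 and *Pck2* was not called. This log2 fold change was -1.17 (SE 0.22, edgeR adjusted p = 0.0156) for *Pck1*, -0.96 (SE 0.13, edgeR adjusted p = 0.00699) for *Pcx* and -0.71 (SE 0.15, edgeR adjusted p = 0.0208) for *Fbp1*. It was -0.88 for *Khk* and -0.87 for *Slc37a4* (SE 0.13 and edgeR adjusted p = 0.00803 for both), and 0.44 (SE 0.17, edgeR adjusted p = 0.111) for *Pck2*. With these 2 libraries per label many genes passed, namely 7.89% of tested genes as lower after adjustment, or 10.4% as lower and 13.4% as higher before it. The drop of 1.63-fold to 2.25-fold in the 5 genes compares 2 mice with 2 mice.

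**Figure D2:**
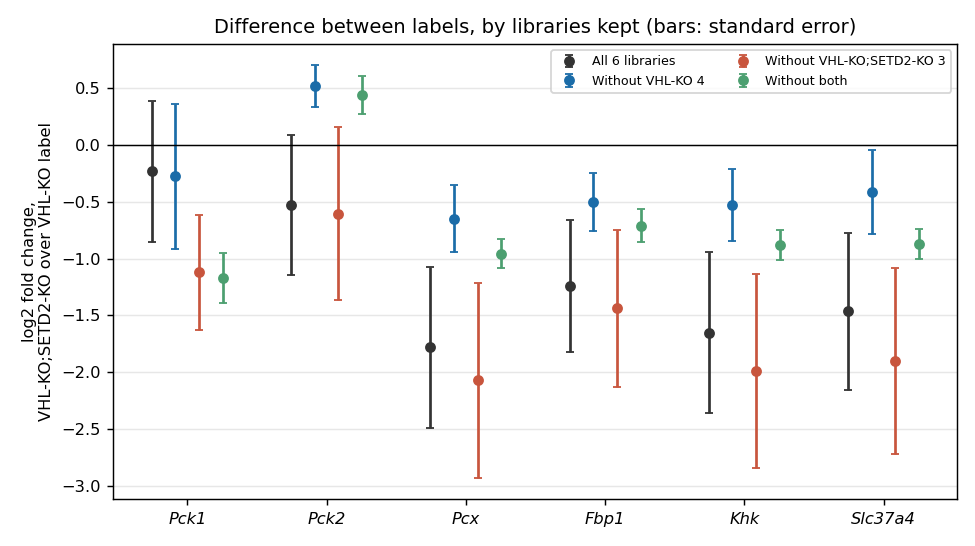
Log2 fold change of VHL-KO;SETD2-KO relative to VHL-KO libraries for each gene, with its standard error, from edgeR fits on all 6 libraries, without VHL-KO 4, without VHL-KO;SETD2-KO 3 and without both. Pck1, Pcx, Fbp1, Khk and Slc37a4 lie below 0 in all 4 fits, and Pck2 lies above 0 in the fits without VHL-KO 4.

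VHL-KO 4 differed from the other VHL-KO libraries by exonic length, and this was set beside the 6 genes. Exonic length counts the bases in exons of any protein-coding transcript of a gene, and can exceed the length of the transcript expressed. Of 5 classes of tested genes by exonic length, the shortest (258 to 1904 bases) had a median of 2.34 times the mean of the other VHL-KO libraries, and the fourth class (3931 to 5564 bases) a median of 0.607 times. *Fbp1* (1479 bases) and *Khk* (1718 bases) fall in the shortest class, *Pck1* (2661 bases) and *Slc37a4* (2639 bases) in the second, with a median of 1.49 times, and *Pcx* (4245 bases) and *Pck2* (4625 bases) in the fourth. *Pcx* and *Pck2* were thus over 4 times higher in VHL-KO 4 in a class whose median was lower there, and *Pck1*, at 0.915 times, was lower than the median of its class. The part of length in the difference between the labels was not tested.

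Per kilobase of exon, *Pck1* had the highest level of the 6 genes, with a median over libraries of 746 CPM per kilobase, followed by *Fbp1* at 476, *Khk* at 178, *Pcx* at 125, *Slc37a4* at 73.6 and *Pck2* at 4.10. This order held in each library except VHL-KO 4, where *Fbp1* and *Khk* stood above *Pck1*. The ranges over libraries of neighbours in this order overlapped, apart from *Slc37a4* (37.1 to 312) and *Pck2* (2.72 to 12.9). The ratio of *Pck1* to *Pck2* counts, not corrected for length, was 147, 180 and 35.6 in the VHL-KO libraries and 46.7, 163 and 62.7 in the VHL-KO;SETD2-KO libraries. The groups overlapped over nearly their whole range, and the mean log2 difference of -0.33 was within the spread (two-sided exact permutation test, p = 0.9). It was -1.06 without VHL-KO 4 (exact permutation p = 0.3) and turned to 0.11 without VHL-KO 2 and to 0.04 without VHL-KO;SETD2-KO 2.

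Most markers of the proximal tubule moved with these genes. Of 10 markers, all detected in each library, 9 had a lower mean in VHL-KO;SETD2-KO libraries, and 5 were called lower (*Slc22a6*, *Ggt1*, *Slc34a1*, *Slc13a3* and *Aqp1*). *Slc5a12* was higher (log2 fold change 0.50), with its highest level in VHL-KO;SETD2-KO 3. The median log2 fold change of the 10 markers was -1.42. Their summed level ranged from 12858 to 28525 CPM under the VHL-KO label and from 5606 to 8405 CPM under the other. Without VHL-KO 4, 7 of the 10 were called lower, among them *Lrp2* (megalin, log2 fold change -1.14). There *Slc5a12* (0.02) and *Slc22a8* (0.11) were not lower, and *Slc5a2* differed by -0.14. Set against the mean log2 level of the 10 markers, *Pcx* differed by -0.45, *Fbp1* by -0.07, *Khk* by -0.33 and *Slc37a4* by -0.22 between the labels, and without VHL-KO 4 by 0.07, 0.24, 0.18 and 0.25. *Pck1* was higher relative to the markers by 0.48 and *Pck2* by 0.81 on the log2 scale, and by 0.23 and 1.28 without VHL-KO 4. Measured against *Lrp2* alone in place of the list, the differences with all libraries were -0.88 for *Pcx*, -0.50 for *Fbp1*, -0.76 for *Khk*, -0.65 for *Slc37a4*, 0.05 for *Pck1* and 0.38 for *Pck2*. These values depend on VHL-KO 4, where *Lrp2* was at 0.279 times the mean of the other VHL-KO libraries. Without VHL-KO 4, *Lrp2* fell more than these genes, by -1.14 against -0.65 for *Pcx*, -0.50 for *Fbp1*, -0.53 for *Khk* and -0.41 for *Slc37a4*. Relative to the 10 markers the groups overlapped for all 6 genes with all libraries, with two-sided exact permutation p-values of 0.3 to 1.0, and 0.1 is the smallest that 3 against 3 libraries allow. Without VHL-KO 4 the groups did not overlap for *Fbp1* and *Pck2*, both higher in the VHL-KO;SETD2-KO libraries (two-sided exact permutation p = 0.1, the smallest possible there). Relative to the markers *Pck2* was lowest in VHL-KO 1 and 2, at -6.05 and -5.65 log2 units, and between -4.76 and -4.26 in the other 4 libraries.

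**Figure D3:**
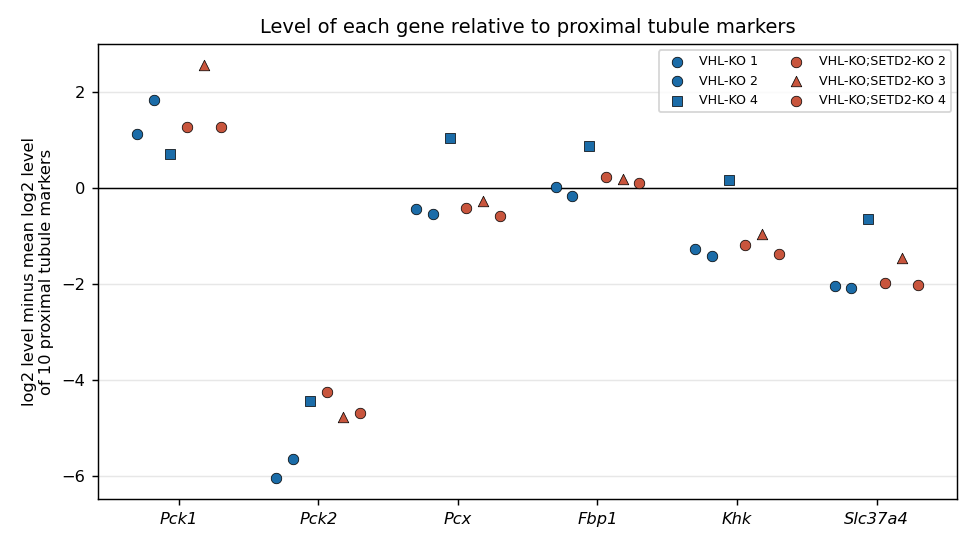
Log2 level of each gene minus the mean log2 level of 10 proximal tubule markers in the same library, with symbols as in the plot of levels. For Pcx, Fbp1, Khk and Slc37a4 the VHL-KO 4 square stands above the other 5 libraries, which lie within 1 log2 unit of each other.

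Podocyte markers moved the other way, with 3 of 5 called higher (among them *Nphs1* and *Wt1*) and summed levels of 1435 to 2085 CPM under the VHL-KO label and 1967 to 4828 CPM under the other. The sum was highest in VHL-KO;SETD2-KO 2 and 4, the libraries in which *Pck1*, *Pcx*, *Fbp1*, *Khk* and *Slc37a4* were lowest. The podocyte marker *Synpo* was instead highest in VHL-KO 4, at 724 CPM against 456 and 411 CPM in VHL-KO;SETD2-KO 2 and 4 (log2 fold change 0.20). Summed endothelial markers ranged from 912 to 1531 CPM and from 1166 to 3598 CPM, with none of 5 called. Without VHL-KO;SETD2-KO 3, 3 of 5 were called higher, as were 354 of 14928 tested genes. Without both libraries that stood apart, 4 of 5 were called higher, against 13.4% of tested genes. The endothelial marker *Plvap* differed by -0.86 with all libraries, -1.70 without VHL-KO;SETD2-KO 3 and 0.75 without both, and was highest in VHL-KO 4 (197 CPM). Of the other lists, 1 of 5 markers was called higher for the thick ascending limb, 1 of 4 for the distal convoluted tubule and 2 of 4 for intercalated cells. Without VHL-KO;SETD2-KO 3 none of the markers in these lists was called. Their median log2 fold changes moved from 0.38 to -0.22, from 0.88 to 0.13 and from 1.49 to 0.86. With all libraries, none of 5 was called for principal cells, with a median log2 fold change of -1.06. Without VHL-KO 4 that median was 2.09, and 1 of 5 was called higher. For stroma none of 5 was called with all libraries, and 2 of 5 were called higher without VHL-KO 4. Of 6 macrophage markers, 1 was called lower with all libraries. No marker of these lists was at 0 in any library. Their part in the result was not tested.

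Among 8 further genes of fructose and polyol metabolism, all 8 had lower mean levels (median log2 fold change -1.10) and 3 were called lower. *Glyctk*, the glycerate kinase at the end of fructose breakdown, was measured at 139, 135 and 334 CPM in the VHL-KO libraries and at 35.7, 46.9 and 50.0 CPM in the VHL-KO;SETD2-KO libraries. Its lowest VHL-KO library was well above its highest VHL-KO;SETD2-KO library, and its log2 fold change was -2.20 (SE 0.51, edgeR adjusted p = 0.625) with all libraries, -1.64 (edgeR adjusted p = 0.0776) without VHL-KO 4 and -1.68 (edgeR adjusted p = 0.00597) without both libraries that stood apart. *Sord*, which makes fructose from sorbitol, did not overlap between the labels either (log2 fold change -1.20), with 1542 to 3343 CPM against 810 to 1123 CPM. *Slc5a10*, an apical mannose and fructose transporter, differed by -1.90 on the log2 scale with overlapping groups, since VHL-KO;SETD2-KO 3 reached 101 CPM against 88.3 CPM in VHL-KO 1. Its call was lost without VHL-KO 4 (-0.69, edgeR adjusted p = 0.404), its highest library. *Sord* differed by -0.73 without VHL-KO 4, and its call was lost without VHL-KO;SETD2-KO 3 (-1.33, edgeR adjusted p = 0.753).

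None of 7 other gluconeogenic genes was called, with a median log2 fold change of -0.54, which was -0.16 without VHL-KO 4 (4 lower and 3 higher) and -1.04 without VHL-KO;SETD2-KO 3. The lowest p-value was that of *G6pc3*, a ubiquitous glucose 6-phosphatase (log2 fold change -1.44, and -0.36 without VHL-KO 4). *G6pc*, the glucose 6-phosphatase of liver and kidney and the partner of *Slc37a4*, was measured at 568, 422 and 726 CPM under the VHL-KO label and at 321, 983 and 231 CPM under the other. As with *Pck1*, VHL-KO;SETD2-KO 3 was the highest library and the other VHL-KO;SETD2-KO libraries were the lowest, and the log2 fold change was -0.16 (edgeR adjusted p = 0.931). It was 0.04 (edgeR adjusted p = 0.976) without VHL-KO 4, -1.04 (edgeR adjusted p = 0.753) without VHL-KO;SETD2-KO 3 and -0.84 (edgeR adjusted p = 0.0341) without both. None of 8 reversible enzymes shared with glycolysis was called either, with *Tpi1* (triose phosphate isomerase) at the lowest p-value (log2 fold change -1.56, and -0.31 without VHL-KO 4). All 8 had lower mean levels, with a median log2 fold change of -1.15, which was -0.10 without VHL-KO 4 (6 lower and 2 higher).

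Of 12 tested genes that drive glycolysis in the opposing direction, 1 was called lower, *Pfkfb4* (log2 fold change -0.93), a bifunctional enzyme that sets the level of fructose 2,6-bisphosphate, and this call was lost without VHL-KO;SETD2-KO 3. Their median log2 fold change was -0.20 with all libraries and 0.29 without VHL-KO 4, where hexokinase 1 (*Hk1*, 0.96), platelet-type phosphofructokinase (*Pfkp*, 0.79) and pyruvate kinase M (*Pkm*, 0.85) were called higher before adjustment. The ratio of *Fbp1* counts to the summed counts of the 3 phosphofructokinase genes, which catalyse the opposite reaction, was 6.36, 5.64 and 4.23 in VHL-KO 1, 2 and 4 and 3.26, 2.84 and 2.71 in VHL-KO;SETD2-KO 2, 3 and 4. The groups did not overlap, with VHL-KO 4 the lowest of its label and VHL-KO;SETD2-KO 3 the middle one of its own. The mean log2 difference was -0.87 and the two-sided exact permutation p = 0.1, the smallest that 3 against 3 libraries allow. The ratio is of counts in mixed cells and is not corrected for length.

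**Figure D4:**
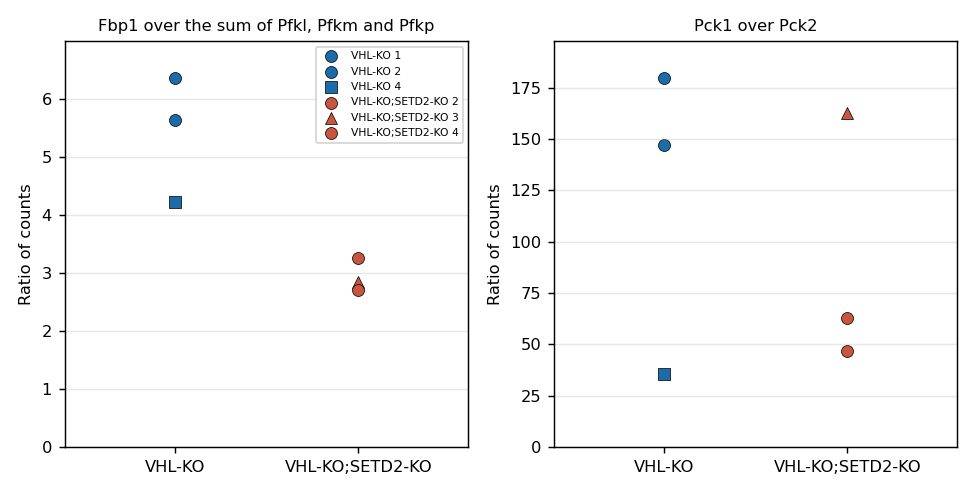
Ratio of Fbp1 counts to the summed counts of Pfkl, Pfkm and Pfkp (left) and of Pck1 to Pck2 counts (right) in each library, by label. The left panel has no overlap, with 4.23 to 6.36 against 2.71 to 3.26, and the right panel overlaps.

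Of 11 genes of substrate supply, 2 were called lower and none higher. They were *Slc38a3*, a basolateral glutamine carrier (47.4, 56.3 and 116 CPM against 23.5, 36.4 and 30.2 CPM, log2 fold change -1.28), and *Gpd1*, which links glycerol to the pathway (log2 fold change -1.58). Both separated the labels without overlap. VHL-KO 4 held 4.04 times the mean of the other VHL-KO libraries for *Gpd1*, and without it the log2 fold change was -0.57, below the 1.5-fold threshold, whereas *Slc38a3* differed by -0.79. *Gpd1* was also not called without VHL-KO;SETD2-KO 3. Of 14 regulators, 2 were called lower, among them the transcription factor *Hnf4a* (736, 662 and 985 CPM against 303, 447 and 412 CPM, log2 fold change -1.04). Without VHL-KO 4 *Hnf4a* differed by -0.86 on the log2 scale, against -0.65 for *Pcx* and -0.53 for *Khk*, and without VHL-KO;SETD2-KO 3 its call was lost (-1.14, edgeR adjusted p = 0.753). None of these genes passed adjustment with all libraries.

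**Figure D5:**
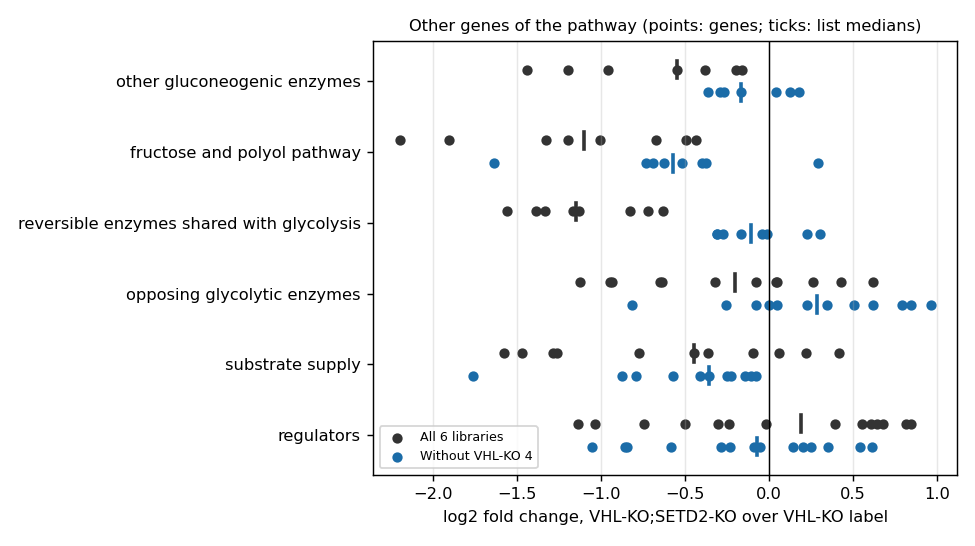
Log2 fold change of VHL-KO;SETD2-KO relative to VHL-KO libraries for the other genes of the pathway, by list, with all 6 libraries and without VHL-KO 4; each point is a gene and each tick a list median. The medians of the fructose and polyol list are -1.10 and -0.57, and that of the opposing glycolytic enzymes moves from -0.20 to 0.29.

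Across the 6 libraries, the genes whose log2 CPM was most like that of each member are given as a description, since the points share their labels and VHL-KO 4 lies far from the rest for most of these genes. *Slc37a4* was most like *Tkfc*, the triokinase that acts after *Khk* in fructose breakdown (Pearson r over 0.999 with all 6 libraries and with the 5 that exclude VHL-KO 4). *Tkfc* was measured at 235, 221 and 845 CPM against 123, 256 and 140 CPM, and was followed by *Echdc3* and *Stxbp2*. *Khk* was most like *Tmem82*, *4833438C02Rik* and *Miox*, the renal inositol oxygenase, *Pcx* was most like *Clybl* and *Isoc2a*, and *Fbp1* was most like *Morn2*, *Gatb* and *Abhd14a*. *Pck2* was most like *Ckb*, *Npdc1* and *Dda1*. *Pck1* was most like *Rdh13*, *Ccdc62* and *Slc22a19*. An r over 0.95 was reached with *Pck1* by 7 of 14610 genes and with *Khk* by 1347. Of these, 7 and 248 also reached it without VHL-KO 4.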

How the data were processed

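RNA-seq was analysed for PTECs of 6 mice, 3 per label, taken from the sample labels. The authors extracted RNA with TRIzol, prepared directional libraries, sequenced paired ends and deposited raw read counts per gene symbol. The submitters' processing notes name HISAT2 2.0.4 and GRCm38, while the counting program, annotation and strand setting are not given in the sources used here. Totals were 11168552 to 17883466 counts. The number of unused per-sample columns was 0.

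From the deposited counts, TMM-normalised CPM and edgeR 4.0.16 quasi-likelihood tests (R 4.3.3, filterByExpr, label as the only factor, Benjamini-Hochberg adjustment over all tested genes) were computed. DESeq2 1.42.0 and limma 3.58.1 served as alternatives, and p-values without a named tool are those of edgeR. Genes were called at an unadjusted p below 0.05 and a 1.5-fold change, the thresholds of the study's methods. Log2 CPM used a prior count of 2. Ratios were compared with exact permutation tests. P-values measure the spread between mice.

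The named genes were the 6 members, Setd2, and of each list up to 4 genes below 0.05 or else the one with the lowest p, and the 3 genes most like each member. The members and lists were chosen with earlier results of these data known. G6pc, Hk1, Pfkp, Pkm, the named markers and Xist were named after their values were seen. Some genes and a motif that these rules cover are not reported here. Gene positions and lengths came from GENCODE on GRCm38, with lengths for 87.7% of tested genes, and promoters from RefSeq, which had a window for all 6 members.

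The alternatives were DESeq2's size factors within edgeR, DESeq2, limma-voom, other filters on low counts, library sizes without mitochondrial or the top 20 genes, Lrp2 in place of the proximal tubule list, a replicate block and leaving out each library. Fits without VHL-KO 4 by DESeq2, with 2 libraries per label and with a crossed block were chosen later, with the data in view.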

Additional observations from a re-analysis of the deposited data

How the results depend on the processing

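The 6 genes had at least 168 counts in each library. The 6 genes were called lower in 2 cases in the reported fit, in 4 with DESeq2, in 1 with at least 10 counts in every library, in 0 with limma-voom, in 1 with DESeq2 without VHL-KO 4 and in 5 with 2 libraries per label, and in 0 to 4 when each library was left out (4 without VHL-KO 2, 0 without VHL-KO 4, VHL-KO;SETD2-KO 2 or VHL-KO;SETD2-KO 4, and 1 without VHL-KO;SETD2-KO 3). Of all tested genes, 4.68% were called lower in the reported fit, 7.15% without VHL-KO 4 and 10.4% with 2 libraries per label. DESeq2, without a low-count filter, called 1123 of 25307 genes lower (4.44%), a share over a larger set of genes. Without VHL-KO;SETD2-KO 3, 328 of 14928 were lower. In either direction, 961 genes were called with at least 10 counts in every library and 909 with limma-voom. Over all genes, 1072 were called in the reported fit, 385 to 2315 when each library was left out (2315 without VHL-KO 4, 1473 without VHL-KO 2, and 385, 682 and 455 without VHL-KO;SETD2-KO 2, 3 and 4), 2610 with DESeq2 without VHL-KO 4 and 3507 with 2 libraries per label. After adjustment the numbers were 1, 0 to 1, 1179 and 2474, and 49 with DESeq2, 2 without a filter and 0 with at least 10 counts in every library. The cause was not tested.

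Both labels have libraries numbered 2 and 4, and the sources do not state that these are paired. Same-numbered libraries deviated from their group means with correlations of 0.16 and -0.32. Those means include the libraries that stood apart, so these values cannot decide whether a shared number means a pairing. With the replicate block, 0 of the 6 genes and 147 genes overall were called, and 228 with the crossed block. In these fits the labels are compared only within the numbers 2 and 4, which include VHL-KO 4. With the replicate block the SE of the 6 genes was 1.17 to 1.32, so the 0 called cannot decide whether they differ.

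With 1 library left out at a time, the log2 fold change of Pck1 lay between -1.12 and 0.11 and that of Pck2 between -0.87 and 0.52, and Pck2 was also higher with DESeq2 without VHL-KO 4 (0.52) and with 2 libraries per label (0.44). Pcx, Fbp1, Khk and Slc37a4 stayed lower in all 16 alternatives, with log2 fold changes of -2.12 to -0.65, -1.52 to -0.50, -2.00 to -0.53 and -1.90 to -0.41. Relative to the proximal tubule markers, 0 to 4 genes were lower with 1 library left out, 0 of them without VHL-KO 4. In those settings Pcx ranged from -0.73 to 0.065, Fbp1 from -0.27 to 0.24, Khk from -0.62 to 0.18 and Slc37a4 from -0.47 to 0.25. The log2 difference in the Pck1 to Pck2 ratio ranged from -1.06 to 0.11, and that in the Fbp1 to phosphofructokinase ratio from -1.03 to -0.74.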
